A study of Mus musculus with 7 samples.

Results

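The genes described here are 7 regulators of the somite and of the paraxial mesoderm it forms from: Meox1, Meox2, Tcf15, Myf5, Mesp1, Mesp2 and Ripply2. They were taken as the non-control probes whose gene name is one of these 7 symbols, which gave 7 probes on 16 spots, out of 55681 probes for 27126 named genes. Each gene had 1 probe, and the Myf5 probe alone was spotted 10 times. RNA came from sorted cells of C57BL6J mouse embryos with the Osr1-GFP knock-in allele, in which green fluorescence reports Osr1, an early transcription factor of the intermediate mesoderm that gives rise to the kidney. Every population compared carries this knock-in allele, the GFP-negative cells included.

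The 7 populations were GFP-positive and GFP-negative cells of whole E8.5 embryos, 3 fractions of the caudal portion of E9.5 embryos, and 2 fractions of E11.5 metanephric mesenchyme. At E9.5 these were a gated fraction (GFP-positive, Itga8-positive and Pdgfra-negative), the other GFP-positive cells and the GFP-negative cells. At E11.5 they were the same gate and the other GFP-positive cells. Itga8 (integrin alpha 8) and Pdgfra (a receptor for platelet-derived growth factor) were sorted as surface proteins. Each population was measured on 1 single-colour array, so no difference has a replicate check and no p-value is given. The labels do not say how many embryos or litters a population came from.

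Paraxial mesoderm flanks the neural tube and is cut at regular intervals into somites. In the presomitic mesoderm a Notch-driven segmentation clock sets the rhythm, Tbx6 and Mesp2 mark the next boundary, and Ripply proteins end that state. Each somite then forms a ventral sclerotome, source of vertebrae and ribs, and a dorsal dermomyotome, source of skeletal muscle and dermis. The intermediate mesoderm lies just lateral to the somites.

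A level is the log2 ratio of a probe's processed signal to the 75th percentile of signals on its array. It compares 1 probe between arrays and says nothing of the amount of 1 transcript against another. Among 399 probes spotted 10 times, the median standard deviation between spots of 1 array was 0.10 log2 units. That value counts only spots that passed the scanner software's detection call, and it was 0.13 with all spots counted. The 0.10 makes 0.14 for a difference between 2 arrays. Gaps below 0.29, which is 2 standard deviations of a difference, were treated as ties, although dim probes can be noisier. This covers spot noise only, since neither sorting, amplification nor embryos were repeated.

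Between 56.2% and 84.1% of spots per array were well above background, the scanner software's detection call, with the lowest share in E8.5 GFP-negative cells and the highest in E9.5 other GFP-positive cells. No spot was saturated. The E9.5 gated and E9.5 GFP-negative arrays shared 1 slide and the other 5 arrays another, so 5 of 10 comparisons lie within a slide, and in the other 5 slide and population cannot be told apart. Osr1 was not well above background on either GFP-negative array and was so on all 5 GFP-positive ones. Pdgfra signal was 183 in E9.5 gated cells against 2800 in E9.5 other GFP-positive cells, and 4.15 in E11.5 gated cells, not well above background, against 4783 in E11.5 other GFP-positive cells.

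The probes are shown because their base content and their distance from relatives bear on what they can detect. The first 30 of the 60 bases of each are printed from the array files, 5′ to 3′, all in lower case because no single stretch stands out.
Meox1: ctaagattacatcaagctaattgtgcaagg
Meox2: agacattaggatcataggcaaatcagttac
Tcf15: ccatccaggcctagctggccagggacaagg
Ripply2: gaggggctggcctgtgaaaatcaatctaat
Mesp2: ttgggtaccttcactgttttgaggggggct
Mesp1: aagatgaagcaggcacaagctttgcctggt
Myf5: ttgtatatgccttaaaataacttgataaat

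Per the file headers the probes lie in the mouse mm9 assembly, at chr11:101738847-101738906 (minus strand) for Meox1, chr12:37905809-37905868 (plus) for Meox2 and chr2:151974683-151974742 (plus) for Tcf15. The Ripply2 probe lies at chr9:86914612-86914671 (plus) and the Myf5 probe at chr10:106919974-106920033 (minus). Mesp2 and Mesp1 are neighbours on chromosome 7, with probes at chr7:86957849-86957908 (plus) and chr7:86937140-86937199 (minus), 20649 bases apart. No exon or UTR annotation of that build was used here. The Mesp1 and Mesp2 probes shared no run longer than 5 bases, Meox1 and Meox2 none longer than 6, and no probe of another gene on the array shared a run of 20 bases with any of the 7. Of the 60 bases, 9 were G or C in the Myf5 probe, and between 21 and 32 were so in the other 6.

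Meox1, Meox2, Mesp2 and Ripply2 were well above background on all 7 arrays and Tcf15 on 6, while Mesp1 and Myf5 were not well above it on any. Tcf15 and Ripply2 had their highest level in E9.5 GFP-negative cells, whereas Meox1 peaked in E9.5 gated cells and Meox2 in E11.5 gated cells. Mesp2 changed little. Of the 5 detected genes, 4 had their lowest level in E11.5 other GFP-positive cells, an array that gave the lowest level of 30.8% of the 24499 genes well above background on any array.

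**Figure D1:**
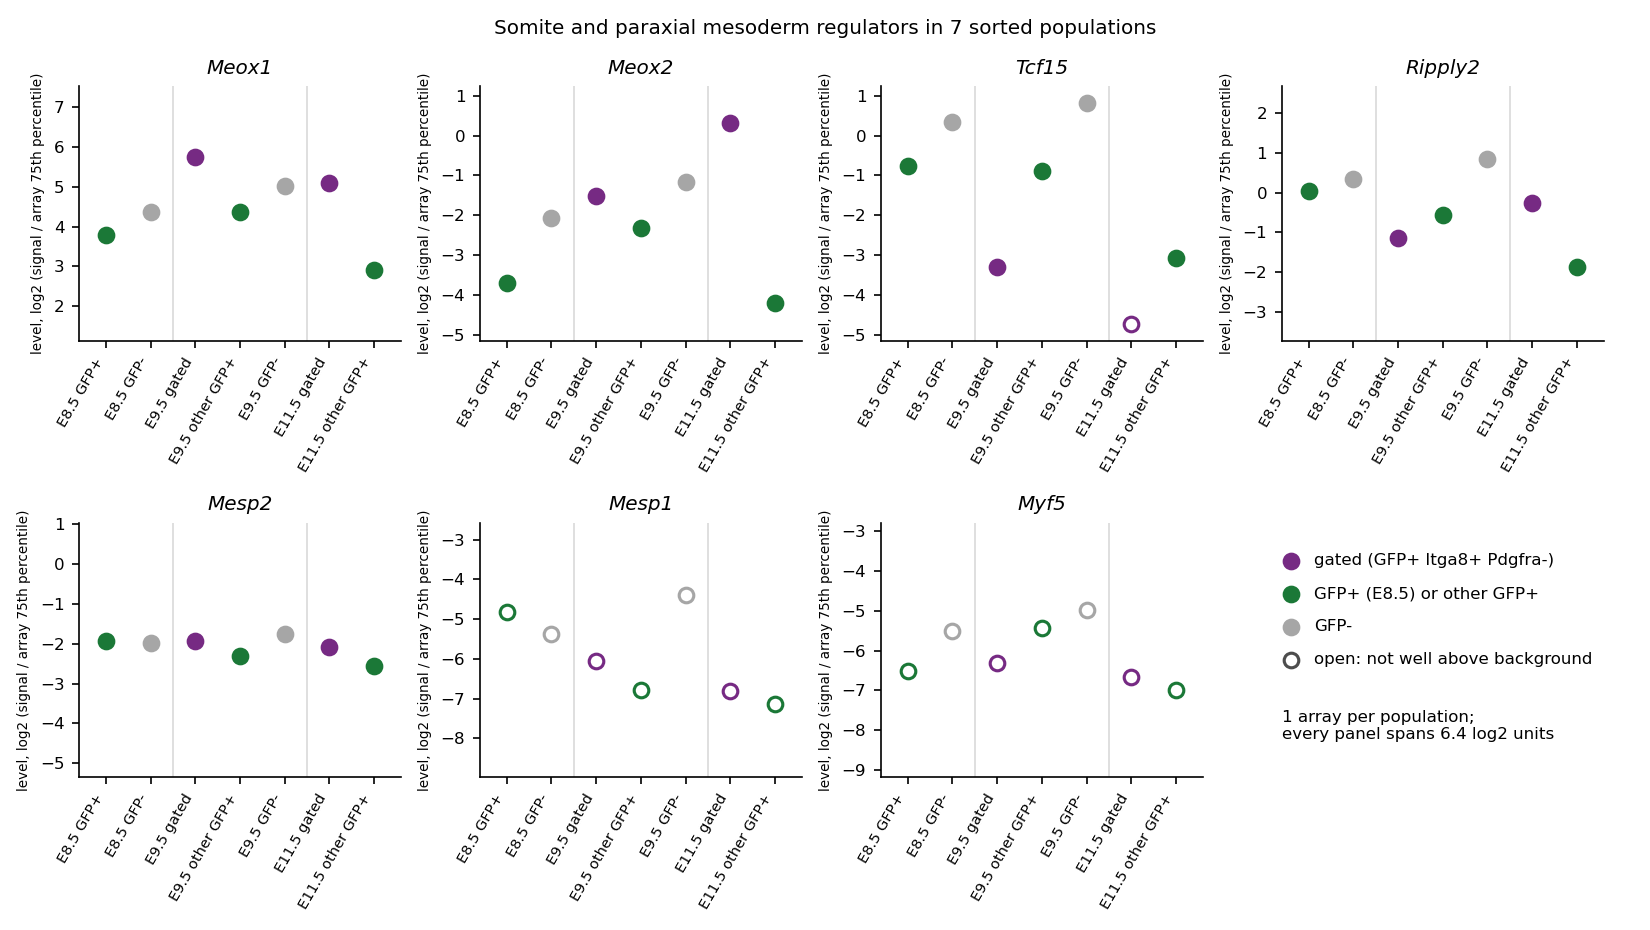
Level of each regulator (log2 of signal over the 75th percentile of the array, vertical axis) in the 7 populations (horizontal axis), with 1 point per array, filled where well above background. Tcf15 and Ripply2 are highest in E9.5 GFP-negative cells, Meox2 is highest in E11.5 gated cells at 0.31, and Mesp1 and Myf5 are open on every array.

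Meox1 and Meox2 encode related homeobox factors of the somite, required together for normal axial skeleton and muscle. The Meox1 level was 3.78 in E8.5 GFP-positive cells against 4.37 in E8.5 GFP-negative cells. At E9.5 it was 5.75 in gated, 4.37 in other GFP-positive and 5.03 in GFP-negative cells. At E11.5 it was 5.10 in gated cells against 2.92 in other GFP-positive cells.

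Both gated arrays carried the 2 highest Meox1 levels, although the E11.5 gated and E9.5 GFP-negative arrays (5.10 and 5.03) were tied within spot noise. The E9.5 other GFP-positive and E8.5 GFP-negative arrays were tied as well, both at 4.37. Its highest signal was 14154 in E9.5 gated cells and its lowest 2194 in E11.5 other GFP-positive cells, a span of 7.14-fold in level. Of 15446 genes well above background on all 7 arrays, 93.8% had a smaller span, and their median span was 1.07 log2 units.

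The gate separated Meox1 at both stages. It was 4.55-fold higher in E11.5 gated than in E11.5 other GFP-positive cells (log2 difference 2.19), within 1 slide. It was 2.6-fold higher in E9.5 gated than in E9.5 other GFP-positive cells (1.38), across slides. Within the second slide it was 0.73 log2 units higher in E9.5 gated than in GFP-negative cells, below 2-fold. Again across slides, Meox1 was 1.98 log2 units higher in E9.5 gated than in E8.5 GFP-positive cells, which is 3.93-fold and just below the 4-fold threshold used for calls. Quantile scaling (2.24) and the unscaled deposited values (2.02) put it past 4-fold, while the normexp background correction (1.91) left it below.

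Meox2, which in the mouse is known for limb muscle as well as the axial skeleton, had a level of -3.70 in E8.5 GFP-positive cells against -2.08 in E8.5 GFP-negative cells. In the E9.5 fractions the level was -1.51 in gated, -2.31 in other GFP-positive and -1.16 in GFP-negative cells. At E11.5 it was 0.31 in gated cells against -4.21 in other GFP-positive cells. The gate lay above the rest of the GFP-positive cells at both stages, as it did for Meox1, and the E11.5 arrays held both the highest and the lowest level.

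In signal the E11.5 pair was 310 in gated cells against 15.7 in other GFP-positive cells, a 22.9-fold difference (log2 4.52) within 1 slide. After the normexp background correction, a model-based subtraction that adds 50 units here, the same difference was 2.54, still past 4-fold. At E9.5 the gated cells were only 0.79 log2 units above the other GFP-positive cells and 0.36 below the GFP-negative cells. Meox2 was also 4.53-fold higher in E9.5 gated than in E8.5 GFP-positive cells (2.18), with values of 1.92 under quantile scaling and 0.98 under normexp, both below 4-fold.

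Over the 7 arrays the levels of Meox1 and Meox2 had a Pearson correlation of 0.84 and a Spearman correlation of 0.89. The points share scaling and stage, and no p is attached to them. Both genes were lowest in E11.5 other GFP-positive cells. They parted between the gates, where Meox2 was higher in E11.5 gated than in E9.5 gated cells by 1.82 while Meox1 was lower by 0.65.

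Tcf15 (paraxis) encodes a basic helix-loop-helix factor needed for the epithelial form of the somite. Its level was -0.75 in E8.5 GFP-positive cells against 0.35 in E8.5 GFP-negative cells. The E9.5 levels were -3.31 in gated, -0.89 in other GFP-positive and 0.83 in GFP-negative cells. At E11.5 it was -4.73 in gated cells, not well above background, against -3.08 in other GFP-positive cells.

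Tcf15 was thus lower in the gate at both stages, the opposite side from Meox1 and Meox2. The signal in E9.5 gated cells was 26.5, against 139.5 in other GFP-positive and 533.0 in GFP-negative cells. This made Tcf15 17.6-fold lower in E9.5 gated than in E9.5 GFP-negative cells (log2 -4.14, within 1 slide, and -2.74 under normexp). Against E9.5 other GFP-positive cells it was 5.34-fold lower (-2.42, across slides), and -1.29 under normexp, below 4-fold.

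At E11.5 the gated cells were at least 3.13-fold below the other GFP-positive cells, a bound because the gated array was not well above background. The bound takes the gated signal of 9.46 itself as the lower side. Under normexp this E11.5 difference was only -0.3 log2 units. Between stages, Tcf15 was 5.88-fold lower in E9.5 gated than in E8.5 GFP-positive cells (-2.55) and 4.57-fold lower in E11.5 than in E9.5 other GFP-positive cells (-2.19). Under normexp these were -1.41 and -1.29, neither past 4-fold. E9.5 other GFP-positive and E8.5 GFP-positive cells were tied at -0.89 and -0.75.

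Ripply2 encodes a nuclear protein that recruits Groucho-type co-repressors to T-box factors and closes the segmentation programme at the new somite boundary. Its level was 0.05 in E8.5 GFP-positive cells against 0.33 in E8.5 GFP-negative cells, a gap within spot noise. At E9.5 it was -1.14 in gated, -0.56 in other GFP-positive and 0.84 in GFP-negative cells. At E11.5 it was -0.26 in gated cells against -1.88 in other GFP-positive cells.

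No Ripply2 difference reached 4-fold. The nearest was E9.5 gated against GFP-negative cells, 3.96-fold lower (log2 -1.99), which became -2.09 under quantile scaling and -2.18 on the unscaled deposited values, both past 4-fold. Under normexp that difference was -1.59, below 4-fold. In E9.5 other GFP-positive cells Ripply2 was 2.65-fold lower than in GFP-negative cells. The gate lay on different sides at the 2 stages, at E9.5 by 0.58 log2 units below the rest of the GFP-positive cells and at E11.5 by 1.62 above them (3.07-fold). This change of side was not tested, and the E9.5 pair lies on different slides.

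Mesp2 encodes the basic helix-loop-helix factor that places the segment boundary and acts upstream of Ripply2 in the mouse. Its signal was 66.2 in E8.5 GFP-positive cells against 58.0 in E8.5 GFP-negative cells. At E9.5 it was 69.1 in gated, 52.3 in other GFP-positive and 89.0 in GFP-negative cells, and the E11.5 signals were 59.5 with the gate and 49.5 for the other GFP-positive cells. Scaled to each array, the levels span 0.80 log2 units (1.74-fold), and each neighbouring pair in the order was tied within spot noise. Of the 15446 genes well above background on all arrays, 29.8% had a smaller span. In 4 comparisons the sign of the Mesp2 difference depended on the scaling, and no direction is given for it there.

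The promoters of Ripply2 and Mesp2 are shown because these genes act in sequence at the boundary and both had their highest level on the E9.5 GFP-negative array, for Mesp2 in a tie with the next. The RefSeq promoter table used here (build GRCm38.p6) was matched for 5 of the 7 genes. Printed are the 250 bases before the gene start, 5′ to 3′ on the gene's strand, with capitals marking the T-box core TCACACC and the E-box CANNTG (bound by helix-loop-helix factors), each searched on both strands. The coordinates are those of GRCm38.p6 and not of the mm9 probe positions.
Ripply2, chr9:87015287-87015536 (plus strand): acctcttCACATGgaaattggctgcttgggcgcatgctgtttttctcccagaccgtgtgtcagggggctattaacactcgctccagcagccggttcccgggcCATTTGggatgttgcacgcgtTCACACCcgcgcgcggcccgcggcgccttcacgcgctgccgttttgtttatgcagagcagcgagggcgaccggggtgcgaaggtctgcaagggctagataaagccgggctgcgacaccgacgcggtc
Mesp2, chr7:79810477-79810726 (plus strand): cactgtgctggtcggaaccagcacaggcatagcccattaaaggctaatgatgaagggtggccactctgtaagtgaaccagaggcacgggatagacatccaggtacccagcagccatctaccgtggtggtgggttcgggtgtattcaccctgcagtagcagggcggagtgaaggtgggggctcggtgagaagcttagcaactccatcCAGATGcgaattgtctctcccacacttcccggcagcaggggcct

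The Ripply2 promoter held 1 TCACACC, 127 to 121 bases before the start, and 2 E-boxes, CACATG and CATTTG. The Mesp2 promoter held no TCACACC and 1 E-box, CAGATG, 44 to 39 bases before the start. Among the others, Mesp1 held 2 E-boxes, Meox2 held 1 and Myf5 none, and none of these held TCACACC. None of these matches overlapped another. Of 32851 promoters of this length, 3.33% held TCACACC and 66.2% held CANNTG, so the E-box is common. These matches describe letters and not binding.

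Mesp1 encodes a helix-loop-helix factor of the earliest mesoderm and of heart progenitors. Its signal was 8.97 in E8.5 GFP-positive cells against 5.58 in E8.5 GFP-negative cells. The E9.5 signals were 3.97 in gated, 2.36 in other GFP-positive and 14.2 in GFP-negative cells, and the E11.5 signals were 2.25 with the gate and 2.06 for the other GFP-positive cells. None of these was well above background, so only bounds exist and no fold is given.

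Myf5 encodes the first of the muscle determination factors to act in the somite. Its geometric mean signal over the spots used was 2.79 in E8.5 GFP-positive cells against 5.05 in E8.5 GFP-negative cells. The E9.5 means were 3.33 in gated, 5.95 in other GFP-positive and 9.48 in GFP-negative cells, and the E11.5 means were 2.48 with the gate and 2.31 for the other GFP-positive cells. None of these passed the detection call, and no fold is given.

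The 10 spots show how these Myf5 means arose. On 5 arrays every spot used held a surrogate value, the software's stand-in for a signal too close to background. In E9.5 other GFP-positive cells 9 of 10 spots held a measured signal, from 3.03 to 13.7, and 1 of them was well above background. In E9.5 GFP-negative cells all 9 spots used were measured, from 3.23 to 15.4, and none was well above background. The spread between spots was 0.71 and 0.70 log2 units on those 2 arrays, and between 0.11 and 0.13 on the others. The probe's 9 G or C bases were the fewest among the 7, and their part in these low signals was not tested.

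**Figure D2:**
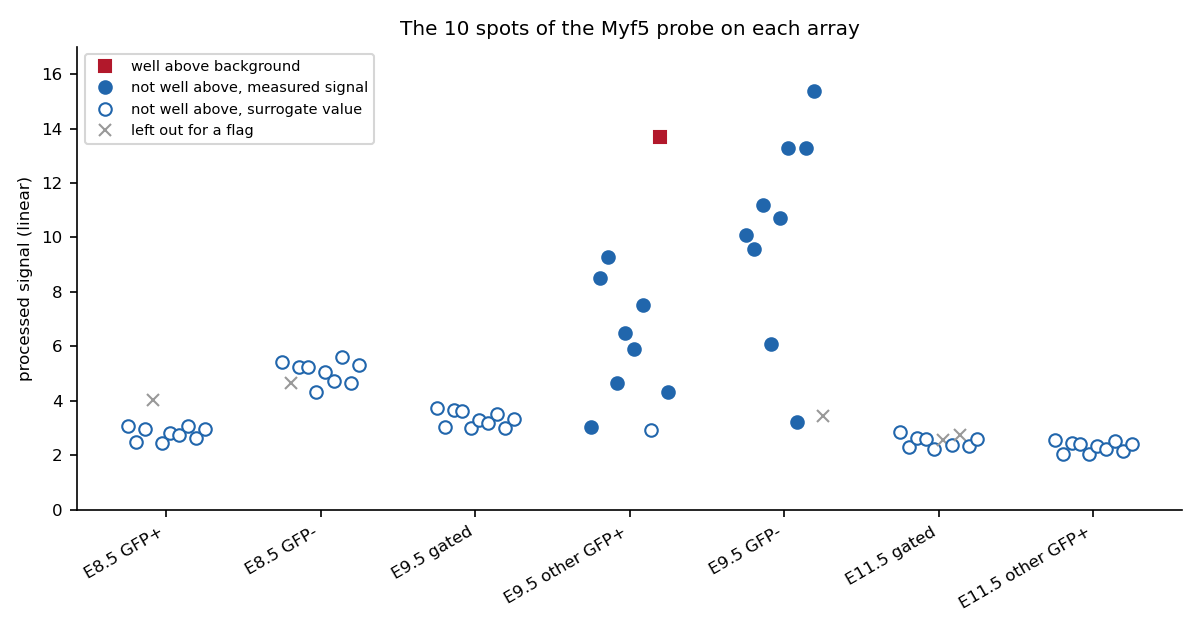
Processed signal (linear scale) of the 10 spots of the Myf5 probe on each of the 7 arrays, with open circles for surrogate values and crosses for spots left out. Among the spots used, measured signals stand in E9.5 other GFP-positive and E9.5 GFP-negative cells, where they reach 13.7 and 15.4, and 1 spot is well above background.

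Set side by side, the comparisons moved few of the 7 genes past 4-fold. In each comparison 5 of the 7 had a measured difference, and the Tcf15 value was a bound where E11.5 gated cells were involved. In E8.5 GFP-positive cells against their GFP-negative counterparts none reached 4-fold, where 2.88% of measured genes did. Meox2 (3.06-fold) and Tcf15 (2.14-fold) were lower in the GFP-positive cells, and the median over the 5 was -0.60 log2 units against 0.00 over all genes. Under normexp the Meox2 and Tcf15 differences were -0.69 and -0.88 log2 units, both below 2-fold.

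In E9.5 gated against other GFP-positive cells 1 of 5 (Tcf15) passed, against 1.79% of all measured genes, and the 5 had a median of 0.38 against -0.13 over all genes. In E9.5 gated against GFP-negative cells 1 of 5 (Tcf15) passed, against 2.86%, with a median of -0.36 against 0.01. In the other GFP-positive cells of E9.5, set against GFP-negative cells, none passed, against 2.02%. All 5 were lower there, with a median of -1.15 against 0.13 over all genes, and Tcf15 at 3.29-fold lower moved most.

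In E11.5 gated against other GFP-positive cells 2 of 5 passed, Meox1 and Meox2, both higher, against 5.22% of all measured genes. The median of the 5 was 1.62 against 0.15. Between stages, 2 of 5 passed in E9.5 gated against E8.5 GFP-positive cells (Meox2 higher, Tcf15 lower), against 3.15%, and 1 of 5 in E11.5 against E9.5 other GFP-positive cells (Tcf15 lower), against 4.99%. In that last comparison 4 of 5 were lower under every scaling, with a median over the 5 of -1.46, and Mesp2 was at -0.25, or 0.04 under quantile scaling. The median over all genes was -0.36 there and became 0.00 under quantile scaling.

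None of 5 passed in E9.5 other GFP-positive against E8.5 GFP-positive cells, where 1.84% of all genes did. None did in the GFP-negative cells of E9.5 against E8.5, where 3.12% did and Meox1, Meox2, Tcf15 and Ripply2 were between 0.48 and 0.93 higher. None did between the gates of E11.5 and E9.5, against 3.89%. Comparisons that share an array are not independent of each other.

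**Figure D3:**
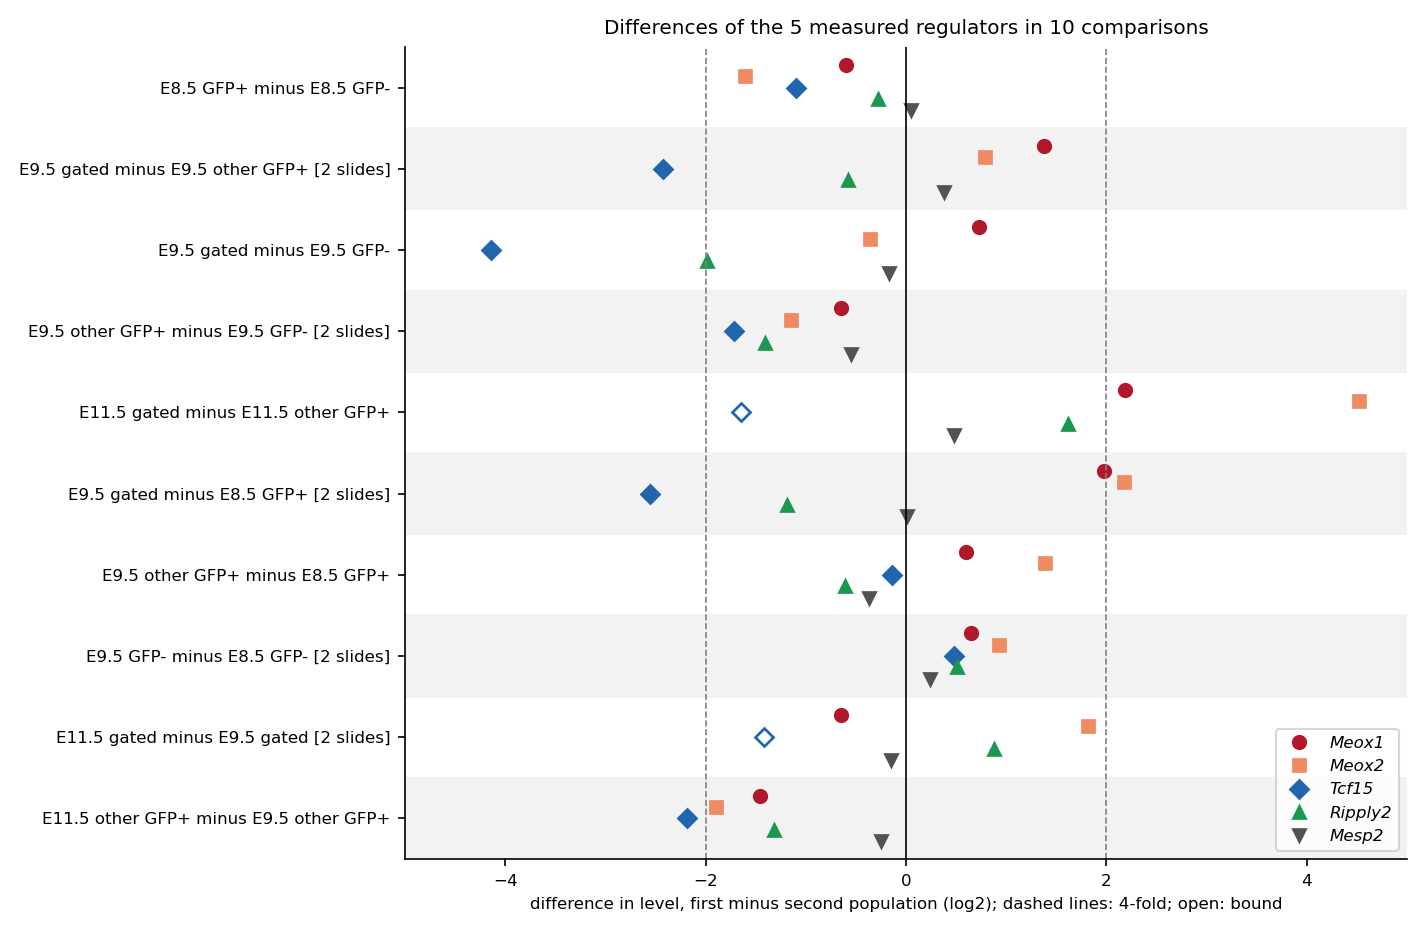
Difference in level (log2, first minus second population, horizontal axis) of the 5 measured regulators in the 10 comparisons (vertical axis), with dashed lines at 4-fold, open symbols for bounds and a mark where the arrays lie on 2 slides. Tcf15 lies left of 0 and Meox1 right of 0 in both gate comparisons, and Meox2 at 4.52 in E11.5 gated against other GFP-positive cells is the value farthest right.

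The wider pathway was described with 3 lists, 14 genes of the presomitic mesoderm and its clock, 8 of the sclerotome and somite polarity and 13 of the dermomyotome and muscle. Of the 34 list genes well above background on any array, 14 (41.2%) had their highest level in E9.5 GFP-negative cells, an array that gave the highest level of 9.97% of all 24499 such genes. The dermomyotome and muscle list contributed 7 of these, the presomitic list 5 and the sclerotome list 2. In E11.5 other GFP-positive cells 4 of the 8 sclerotome genes had their highest level, against 14.3% of all genes. Foxc2, one of these 4, was tied there with E11.5 gated cells (4.73 in the gate, 4.96 outside it). The same array gave the lowest level of 2 of the 8, against 30.8% of all genes. These 2 were Pax1 and Pax9, neither well above background there.

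**Figure D4:**
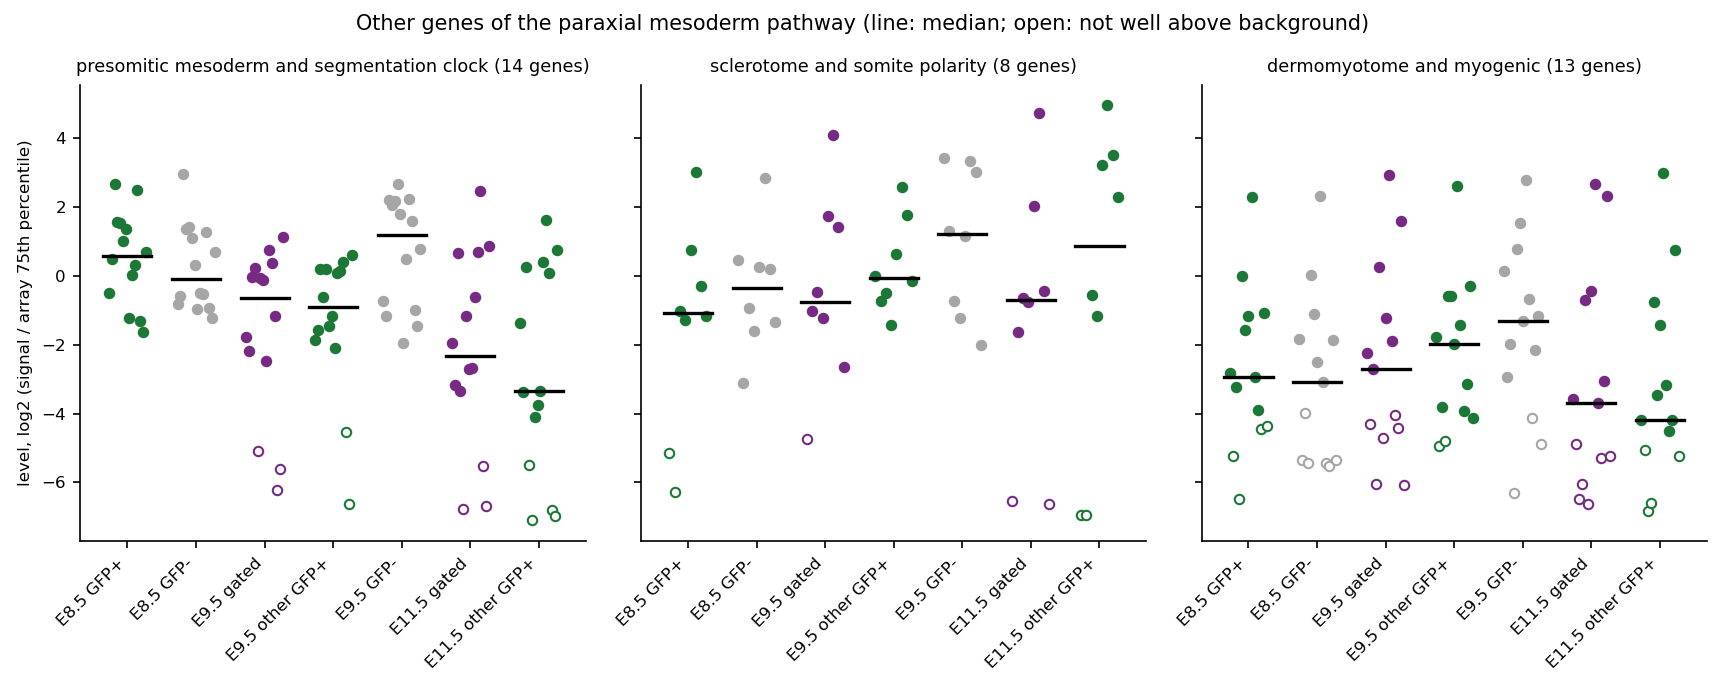
Levels (log2, vertical axis) of the genes of the 3 lists in the 7 populations (horizontal axis), with 1 point per gene, open where not well above background, and a line at the median. The presomitic median is lowest in E11.5 other GFP-positive cells at -3.35 and highest in E9.5 GFP-negative cells at 1.19.

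In the E9.5 gate 11 of 14 presomitic genes were well above background, with Dll3 (a Notch ligand of the clock), T (Brachyury, of the tail bud) and Wnt3a not above it. The other GFP-positive cells of that stage had 12 of 14, and E9.5 GFP-negative, E8.5 GFP-positive and E8.5 GFP-negative cells each had 14 of 14. In E9.5 gated against other GFP-positive cells 1 of 12 measured genes passed 4-fold, Dll3, at least 21.4-fold lower, against 1.79% of all measured genes. In E9.5 gated against GFP-negative cells 6 of 14 passed, all lower, against 2.86% of all measured genes, with a list median of -1.90. They were Dll3 (at least 84.9-fold), T (at least 9.57-fold), Wnt3a (at least 6.86-fold), Lfng and Rspo3 (6.71-fold each) and Hes7 (4.71-fold).

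Lfng, a glycosyltransferase that tunes Notch, had a level of -0.07 in E9.5 gated, -1.45 in other GFP-positive and 2.67 in GFP-negative cells. Its E9.5 other GFP-positive value was 17.4-fold below GFP-negative cells. In that comparison 6 of 14 presomitic genes were at least 4-fold lower, where 2.02% of all measured genes passed 4-fold, and the list median was -1.99. Tbx6, the T-box partner of Mesp2 at the boundary, differed less, at -1.77 in gated, -1.86 in other GFP-positive and -0.72 in GFP-negative cells of E9.5.

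At E8.5 none of 14 presomitic genes passed 4-fold between GFP-positive and GFP-negative cells, where 2.88% of all measured genes did. The list median was 0.17. Against E8.5 GFP-positive cells, 6 of 14 were at least 4-fold lower in E9.5 gated cells, where 3.15% of all measured genes passed 4-fold. In E9.5 other GFP-positive cells 8 of 14 were, where 1.84% passed, and no presomitic gene was 4-fold higher in either. Msgn1, a transcription factor of the presomitic mesoderm, was 6.33-fold lower in E9.5 gated and 4.14-fold lower in E9.5 other GFP-positive cells. The E8.5 cells came from whole embryos and the E9.5 cells from the caudal portion, so stage and tissue cannot be told apart. At E11.5, Lfng (7.65-fold) and Rspo3 (5.28-fold), a Wnt enhancer, were higher in gated than in other GFP-positive cells. These were 2 of 11 measured, against 5.22% of all measured genes.

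In E9.5 gated against GFP-negative cells 2 of 8 sclerotome genes were at least 4-fold lower, where 2.86% of all measured genes passed 4-fold. The list median was -0.33, and Foxc1 (1.73 against 1.15) and Foxc2 (4.10 against 3.35) were higher in the gate. Pax1 was at least 202.2-fold lower in E9.5 gated than in GFP-negative cells. In E9.5 gated against other GFP-positive cells 2 of 8 passed, against 1.79%, Pax1 at least 18.9-fold lower. At E8.5 Pax1 alone of 8 passed, against 2.88%, with a list median of 0.05. Pax1 was at least 28.5-fold lower in E8.5 GFP-positive than in E8.5 GFP-negative cells. Its partner Pax9 was 5.08-fold lower in E9.5 gated and 4.15-fold lower in E9.5 other GFP-positive cells, each against GFP-negative cells. In E11.5 gated against other GFP-positive cells 3 of 7 measured sclerotome genes passed, against 5.22% of all measured genes. Pax9 was at least 3.42 log2 units higher, whereas Tbx18, a T-box factor of rostral somite identity that also marks kidney stroma, was at least 140.5-fold lower and Sox9, a cartilage regulator, 15.4-fold lower.

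Of the dermomyotome and muscle list, 4 of 10 measured genes passed in E9.5 gated against GFP-negative cells, against 2.86% of all measured genes. Dmrt2 (at least 54.2-fold), a dermomyotome factor, Pax3 (5.19-fold), the muscle progenitor factor, and Cdh15 (at least 4.27-fold), a muscle cadherin, were lower, and Des (6.77-fold), the muscle filament desmin, was higher. In E9.5 gated against other GFP-positive cells only Dmrt2 passed, at least 12.6-fold lower, 1 of 11, against 1.79%. In GFP-negative cells of E9.5 against E8.5, Dmrt2 (6.26-fold) and Myog (5.34-fold), a muscle differentiation factor, were higher, 2 of 10, against 3.12%. En1, of the dermomyotome, was not well above background on any array.

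Markers of other cell types also differed between the GFP-positive and GFP-negative fractions. Summed signals, here and below, add the processed signals of different probes without scaling between arrays. Bright probes therefore weigh most in them, and they do not measure amounts of transcript. The 5 red blood cell markers had a summed signal of 91.7 to 1243 in the 5 GFP-positive populations, against 162634 in E9.5 and 187717 in E8.5 GFP-negative cells, where all 5 were well above background. Their median difference was -9.52 log2 units in E8.5 GFP-positive against E8.5 GFP-negative cells, where the presomitic list had a median of 0.17, the sclerotome list 0.05 and the dermomyotome and muscle list 0.00. The 6 neural tube markers summed to 386 in E9.5 gated and 404 in E9.5 other GFP-positive cells, with Sox2 not well above background in either. They summed to 7898 in E9.5 GFP-negative cells, where all 6 were well above it and Sox3 (5027) and Sox2 (1880) held most of the sum. Against those cells 3 of 6 were at least 4-fold lower in the gate, where 2.86% of all measured genes passed. In other GFP-positive cells 4 of 6 were so, against 2.02%. At E8.5 the 6 markers summed to 384 in GFP-positive cells against 1547 in GFP-negative cells. There 2 of 6 were at least 4-fold lower, against 2.88% of all measured genes, with a list median of -0.09. Those 2 were Sox2 (17.7 against 219.7) and Sox3 (97.3 against 1074). The part of these markers in the somite differences was not tested. Fewer cells of a type and less RNA per cell cannot be told apart in sorted populations of this kind.

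Of 6 intermediate mesoderm genes, 5 were at least 4-fold higher in E9.5 gated than in GFP-negative cells (2.86% of all measured genes passed 4-fold). Against E9.5 other GFP-positive cells 2 were so (1.79%), and 3 were so in E11.5 gated against other GFP-positive cells (5.22%). Osr1, whose difference between GFP-positive and GFP-negative cells the sort itself set, was among the 5. It was also among the 3. At E8.5 it alone of the 6 was at least 4-fold higher in GFP-positive than in GFP-negative cells (2.88%). Emx2, one of the 6, was at -5.35 in E11.5 gated cells, not well above background, against -3.37 in E11.5 other GFP-positive cells. Pax8, a kidney lineage factor, had a level of 0.72 in E9.5 gated cells and was not well above background in E9.5 other GFP-positive or GFP-negative cells. Lateral plate and heart genes, of the other neighbouring mesoderm, summed to 488 in E9.5 gated cells with Hand2 and Tbx5 not well above background. They summed to 2350 in E9.5 other GFP-positive and 631 in E9.5 GFP-negative cells. At E8.5 they summed to 2967 in GFP-positive and 914 in GFP-negative cells. There 2 of 6, Hand2 and Isl1, were at least 4-fold higher in GFP-positive cells, against 2.88% of all measured genes, with a list median of 1.51. At E11.5 only Isl1 and Gata4 were detected on either array. Isl1 had a signal of 11.7 in gated against 330.0 in the other GFP-positive cells, and Gata4 had 19.4 against 31.0. Endothelial genes were detected in full on the 5 arrays of E8.5 and E9.5, and 2 of 5 were on both E11.5 arrays.

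The genes whose levels followed each regulator most closely were ranked by Pearson correlation over the 7 arrays, among 5665 genes (5666 for Mesp2) well above background on at least 3 arrays and spanning at least 2 log2 units. For Tcf15 these included Tmem132e (0.993) and Tdrp (0.976), and for Ripply2 Mkrn1 (0.990) and B430316J06Rik (0.958).

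For Meox1 they were Usp43 (0.971), Tdpoz2 (0.954) and Adra1a (0.948), and for Meox2 N4bp2l1 (0.970), Fam81a (0.954) and Amigo1 (0.947). For Mesp2, whose own span was 0.80, they were 0610010O12Rik (0.989), Olfr630 (0.960) and Lfng (0.949). With 7 points and so many genes ranked, such values describe these arrays only. Among the 5 detected regulators themselves, the closest pairs after Meox1 and Meox2 were Mesp2 and Ripply2 (0.78), followed by Tcf15 and Ripply2 and by Meox1 and Mesp2 (0.68 each). Tcf15 had correlations of -0.12 with Meox1 and -0.24 with Meox2.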

How the data were processed

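RNA of each population (10 ng) was amplified with a whole-transcriptome kit and hybridised in Cy3 to 1 Agilent array, per the labels' protocols. The submitters' processing notes name Agilent Feature Extraction (10.7.3.1), whose processed signal is the deposited spot intensity. Per the file headers it is background-subtracted and linear, and all 62976 values per array in the deposited value table equalled it. Levels were log2 signal minus the array's 75th percentile, after flagged spots (127 to 160 per array) were dropped and spots of a probe averaged. A gene was its probe with the highest mean. Of the probes, 26425 took symbols from a RefSeq table by accession, and 20323 without a gene name were left out of gene counts.

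A difference counted as measured if either array passed the detection call (in a share of at least 0.5 of the probe's spots). A dim side took its own level or its array's lowest detected level, whichever was higher, and the fold is then "at least". Calls start at 4-fold. There is no test, since each group has 1 array, and this number of arrays sets the precision. The members, the 8 lists and the naming rule were chosen with earlier results of these data known. The rule named all 7 members, up to 3 genes a side per list and comparison with the largest difference, and the 3 closest genes by correlation, some of which are not reported here. Hes7, Lfng, Rspo3, Msgn1, Tbx6, En1, Pax8, Emx2, Sox2, Sox3, Foxc2, Isl1, Gata4, Hand2 and Tbx5 were also given values chosen after these were seen, where the rule did not name them. Alternatives were normexp (limma 3.58.1 in R 4.3.3), quantile scaling, the unscaled table, no filter, detection on both arrays, the mean of all probes and a 2-fold threshold. Python 3.11.15 was used.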

Additional observations from a re-analysis of the deposited data

Results flagged for a closer look

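The gate difference of Ripply2 had opposite signs at the 2 stages. In E9.5 gated against E9.5 other GFP-positive cells it was -0.58 log2 units, and in E11.5 gated against E11.5 other GFP-positive cells it was 1.62. The change of sign was not tested, and with 1 array a population it cannot be. The E9.5 pair lies on 2 slides and the E11.5 pair on 1.

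Meox1 lay on different sides of the GFP-negative cells at the 2 earlier stages. It was -0.60 log2 units in E8.5 GFP-positive against E8.5 GFP-negative cells, and 0.73 in E9.5 gated against E9.5 GFP-negative cells. Each pair lies within 1 slide. The E9.5 fraction is the narrower gate while the E8.5 one is all GFP-positive cells, and the difference was not tested. The E9.5 other GFP-positive cells, across slides, were 0.65 below the GFP-negative cells.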

How the results depend on the processing

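No paired analysis was possible because each population has 1 array and no replicate numbers. No difference named for the 7 genes reversed its direction under any alternative, except those of Mesp2, whose sign depended on the scaling in 4 comparisons. At a 2-fold threshold the count of the 5 measured members past it, with the share of all measured genes past 2-fold, was 2 (13.1%) between the sorted fractions of E8.5, 2 (12.2%) in E9.5 gated against other GFP-positive, 2 (2466 of 21490 genes) in E9.5 gated against GFP-negative, 3 (13.6%) between the other GFP-positive and the GFP-negative cells of E9.5, 4 (19.6%) in E11.5 gated against other GFP-positive, 4 (16.6%) in E9.5 gated against E8.5 GFP-positive, 1 (13.1%) in E9.5 other GFP-positive against E8.5 GFP-positive, 2 (3661 of 21567 genes) between the gates of E11.5 and E9.5, and 4 (28.4%) between the other GFP-positive cells of those stages. Under normexp the count at 4-fold was 0 in E9.5 gated against other GFP-positive cells, where 0.394% of all measured genes passed. It was also 0 in E9.5 gated against E8.5 GFP-positive (0.79%) and in E11.5 against E9.5 other GFP-positive cells (1.14%). The offset of 50 units shrinks differences of dim probes under this setting. Quantile scaling and the unscaled table each gave 2 in E9.5 gated against GFP-negative cells (Tcf15 and Ripply2), against 3.14% and 3.01% of all measured genes. The unscaled table gave 3 in E9.5 gated against E8.5 GFP-positive cells (Meox1, Meox2 and Tcf15), against 3.22%. Quantile scaling gave 2 there, against 3.19%, Meox1 and Tcf15 in place of Meox2 and Tcf15. The unscaled table gave 1 in E11.5 gated against other GFP-positive cells, against 5.54%, since Meox1 was 1.98 there. With no filter, 1 member passed between the other GFP-positive and the GFP-negative cells of E9.5, against 7.0% of all genes. It was Mesp1, not well above background on either array. Detection on both arrays removed only Tcf15, where E11.5 gated cells were involved and it had not passed 4-fold, so no member count changed. The mean of all probes could not change a member count, since each member has 1 probe. Over all genes, at least 1.5-fold shifts in the count past 4-fold came with no filter (1145 to 3226 genes in 10 comparisons), normexp (89 to 325 in 10), detection on both arrays (281 to 685 in 8), the mean of all probes (808 to 2319 in 5) and quantile scaling (688 to 737 in 2), and a 2-fold threshold gave 2466 to 6736. Levels were not recomputed on the unscaled table, which has another scale. Surrogate values, held by 1661 to 12590 spots per array, and signals that failed the detection call limit what can be said of Mesp1 and Myf5. Mesp1 held a surrogate value in E9.5 other GFP-positive cells and on both E11.5 arrays. On the remaining arrays its signal was measured but failed the detection call.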
